A study of Mus musculus with 12 samples.

Results

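Mest, Sfrp5, Bmp3 and Npr3 are 4 genes known from work on the expansion of fat mass in mice. They were taken by name, with earlier results of these data known. The platform annotation named probe sets for 3 of the 4: 1 for Mest, 2 for Sfrp5 and 3 for Npr3, which makes 6 of the 45098 probe sets in the table. No probe set carried the name Bmp3, and Bmp3 is not analysed here. Where a gene had several probe sets, the one with the highest mean over all 12 arrays was taken as its main one, and all 3 measured genes were among the 13312 of 18193 named genes that passed the filter on low signal.

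The study measured RNA of adipose tissue from C57Bl/6 mice with Affymetrix arrays of 1 colour. The 3 groups of 4 samples were mice kept on standard chow, in which fat supplied 13% of calories, and mice moved to a diet rich in fat (HFD, 46%) and studied after 5 days or after 14 days. All mice ate the chow until 6 weeks of age, when the HFD groups were switched. The fat depot, the sex, and the age of the chow mice when tissue was taken are not given in the sources used here, so diet and any age difference cannot be told apart, and whether each array is a separate mouse is not stated.

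Mest encodes a membrane protein of the alpha/beta hydrolase family; it is imprinted, with the paternal copy expressed, and mice that carry extra Mest in fat have larger adipocytes. Sfrp5 is a secreted protein that binds Wnt ligands outside the cell, and in fat it is made by adipocytes. Bmp3 is a secreted member of the bone morphogenetic protein (BMP) family that opposes other BMPs. Npr3 is the clearance receptor of the natriuretic peptides, hormones that stimulate lipolysis through the receptor Npr1; it removes these peptides by taking them into the cell.

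The windows around the annotated starts of the 3 measured genes are shown because the signals of these genes moved together over the arrays. Each runs from 250 bases before to 50 bases after the start, reads 5′ to 3′ on the strand of the gene, and comes from RefSeq annotation of GRCm38.p6; capitals mark CG dinucleotides. Mest lies at chr6:30737800-30738099 on the plus strand, Sfrp5 at chr19:42202203-42202502 on the minus strand and Npr3 at chr15:11907322-11907621 on the minus strand.
Mest: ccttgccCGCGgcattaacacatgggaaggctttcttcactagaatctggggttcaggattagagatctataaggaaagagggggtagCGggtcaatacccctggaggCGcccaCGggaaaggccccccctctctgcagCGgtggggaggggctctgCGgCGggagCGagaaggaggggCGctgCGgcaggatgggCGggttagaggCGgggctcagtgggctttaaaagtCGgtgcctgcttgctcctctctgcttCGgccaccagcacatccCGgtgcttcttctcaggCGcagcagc
Sfrp5: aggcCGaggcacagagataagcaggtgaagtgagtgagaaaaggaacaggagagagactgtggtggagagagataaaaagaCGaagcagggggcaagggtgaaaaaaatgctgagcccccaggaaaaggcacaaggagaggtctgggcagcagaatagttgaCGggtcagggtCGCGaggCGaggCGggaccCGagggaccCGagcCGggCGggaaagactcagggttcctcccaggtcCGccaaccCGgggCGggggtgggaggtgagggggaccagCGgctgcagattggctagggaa
Npr3: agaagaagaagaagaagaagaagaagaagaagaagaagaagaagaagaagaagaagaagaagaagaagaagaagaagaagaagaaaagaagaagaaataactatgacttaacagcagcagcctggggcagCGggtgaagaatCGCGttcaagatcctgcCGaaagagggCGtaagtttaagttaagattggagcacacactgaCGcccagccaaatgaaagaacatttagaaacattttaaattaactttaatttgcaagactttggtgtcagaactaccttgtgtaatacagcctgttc

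The Mest window holds 17 CG dinucleotides and has a G+C content of 62.7%, and the Sfrp5 window holds 15 with 61.3%. The Npr3 window holds 6 CG dinucleotides and has a G+C content of 39.0%, below the medians of 7 and 52.7% over the 32851 windows in the table. The annotated Npr3 gene runs over chr15:11839896-11907837, so this window lies inside the gene. No window around the outermost start of Npr3 was read. The letters GGGCGG, searched on both strands, occur 1 time in the Mest window, 2 times in the Sfrp5 window and 0 times in the Npr3 window, and in 35.7% of all windows; each such match holds a CG. TATAAA occurs in 13.6% of all windows, TTGCNNCAA in 2.08%, AGGTCA in 16.3% and CTTTGA in 16.0%, and none of these 4 occurs on either strand of the 3 windows shown. RefSeq lists 2 further windows for Mest, at chr6:30733256-30733555, with 8 CG dinucleotides, and at chr6:30737803-30738102, nearly the same as the one shown. The arrays do not measure binding or methylation at any of them.

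Array medians lay between 8.09 and 8.14 log2, and pairs of arrays correlated at 0.956 to 0.997 over probe sets. Of 18 listed adipocyte markers 14 were tested, and their mean was 13.66 log2 in array 4 of the 14-day group and 13.98 to 14.19 in the others; Adipoq, the fat-made hormone adiponectin, was at 14.90 to 15.05. Markers of other tissues were high in some arrays. Of 11 listed epididymis markers 4 were tested, and the most abundant, the epididymal protease inhibitor Spink8, was above 14 log2 in arrays 1, 2 and 3 of the 5-day group and in array 4 of the 14-day group, and at 6.85 to 8.87 in the other 8. In 5-day array 4, the gap between the 3′ and the 5′ control probe sets for pyruvate carboxylase, which reports on RNA quality, was 2.83 log2, against 1.59 to 2.18 in the others. For the Gapdh and beta-actin controls the gap was largest in 14-day array 2, at 0.276 and 0.547 log2. On both, 5-day array 4 came next, at 0.272 and 0.504. The means of all 9 liver markers ran from 7.95 to 13.20 log2 over arrays and those of 8 of 11 skeletal muscle markers from 8.62 to 12.86, high in chow array 3 and 5-day array 2. Macrophage marker means were 9.75 log2 in 14-day array 4 and 10.55 to 10.98 in the other 14-day arrays. They were 10.78 to 11.07 in the 5-day arrays and 10.995 to 11.23 on chow, with 0 of 10 genes called. The margin between the 14-day and chow arrays was small, 10.981 against 10.995.

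After 5 days of HFD, Mest, Npr3 and Sfrp5 were each higher in the mean than on chow, by 0.68, 0.53 and 0.59 log2, and after 14 days by 0.35, 0.31 and 0.55 log2. None of these differences passed the test, and the ranges of the groups overlapped for the main probe set of each gene. What the 3 genes shared was their order over the 12 arrays: pairwise correlations were 0.85 to 0.89. Other genes correlated more highly with each of them, as given below. All levels and differences below are log2 array signals, in which a difference of 1 is a factor of 2.

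**Figure D1:**
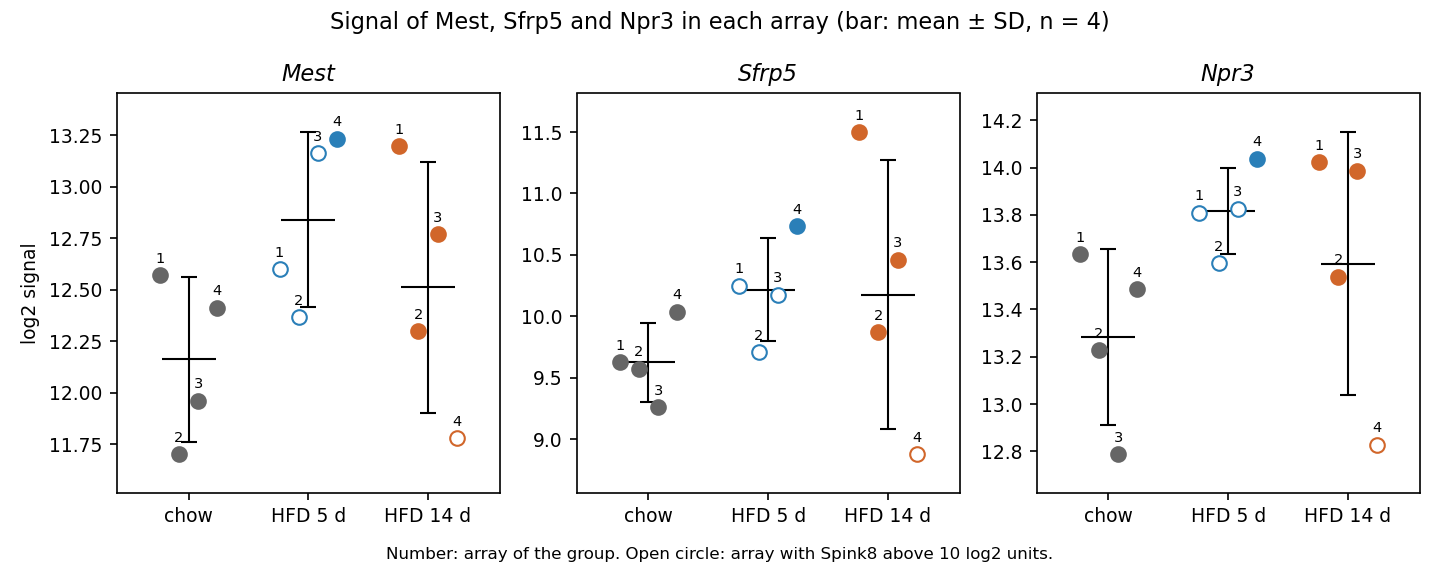
Log2 signal of Mest, Sfrp5 and Npr3 (main probe sets, 1 panel each) in every array, by group, with array numbers beside the points; bars are mean ± SD of 4 arrays and open circles are arrays with Spink8 above 10 log2. In the 14-day group, array 4 is the lowest for all 3 genes.

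Mest, as measured by its single probe set, read 12.57, 11.70, 11.96 and 12.41 log2 in the chow arrays, 12.60, 12.37, 13.16 and 13.23 in the 5-day arrays, and 13.20, 12.30, 12.77 and 11.78 in the 14-day arrays. The 5-day arrays 3 and 4 and the 14-day array 1 were the highest, chow array 2 and 14-day array 4 were the lowest, and all 3 groups overlapped. Mest averaged 12.84 ± 0.42 after 5 days and 12.16 ± 0.40 on chow (SD, n = 4 each), a difference of 0.68 ± 0.31 (SE; 95% interval -0.0047 to 1.36), or 1.60-fold, with a limma unadjusted p of 0.0513 and adjusted p of 0.498. After 14 days it averaged 12.51 ± 0.61, 0.35 ± 0.31 above chow, with a limma adjusted p of 0.811. In bulk tissue, fewer cells of a type and less RNA per cell cannot be told apart.

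Sfrp5 read 9.63, 9.58, 9.26 and 10.04 log2 on chow, 10.25, 9.71, 10.18 and 10.74 after 5 days, and 11.50, 9.87, 10.46 and 8.88 after 14 days. The 14-day group held both the highest and the lowest array of the study, so it covered the whole range of the chow and 5-day groups. Its 4 arrays spanned 6.15-fold, against 2.04-fold after 5 days and 1.71-fold on chow. Sfrp5 averaged 10.22 ± 0.42 after 5 days and 9.62 ± 0.32 on chow (SD, n = 4 each), a difference of 0.59 ± 0.45 (SE; 95% interval -0.39 to 1.58) with a limma adjusted p of 0.696. After 14 days the mean was 10.18 ± 1.10, a difference from chow of 0.55 ± 0.45 (95% interval -0.43 to 1.54) with a limma adjusted p of 0.796.

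The other Sfrp5 probe set, 1423023_at, ranked the arrays much alike (r = 0.982 with the main one, 1436075_at). It read 10.999, 9.632, 10.255 and 8.970 log2 after 14 days, again with array 1 highest and array 4 lowest of all 12. Its difference from chow was 0.44 ± 0.34 after 5 days and 0.42 ± 0.34 after 14 days, with limma adjusted p of 0.758 after 5 days in a fit over every named probe set, and was not called.

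Npr3 read 13.63, 13.23, 12.79 and 13.49 log2 on chow, 13.81, 13.60, 13.83 and 14.04 after 5 days, and 14.02, 13.54, 13.99 and 12.83 after 14 days. The 5-day arrays lay close together, and only the lowest of them, array 2, was under the highest chow array. Npr3 averaged 13.82 ± 0.18 after 5 days and 13.28 ± 0.37 on chow (SD, n = 4 each), a difference of 0.53 ± 0.26 (SE; 95% interval -0.028 to 1.09), or 1.45-fold, with a limma unadjusted p of 0.0606 and adjusted p of 0.518. After 14 days the difference was 0.31 ± 0.26, with a limma adjusted p of 0.801.

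On the other Npr3 probe sets the 5-day arrays did not overlap the chow arrays, but the margins were small. The lowest 5-day and the highest chow array were at 11.909 and 11.891 log2 on 1448024_at. On 1450286_at they were at 11.046 and 10.971, and on the main probe set the groups overlapped. The share of all probe sets that separate so was not counted. For main probe sets it was 864 of 13312 genes (6.49%). Probe set 1448024_at read 12.22, 11.91, 12.22 and 12.30 log2 after 5 days, against 11.89, 11.33, 10.90 and 11.58 on chow. Probe set 1450286_at read 11.31, 11.05, 11.23 and 11.17 after 5 days, against 10.971, 10.487, 9.997 and 10.505 on chow. Their differences were 0.74 ± 0.35 and 0.70 ± 0.38, with limma adjusted p of 0.563 and 0.620 in the fit over every named probe set, so neither was called. After 14 days, array 4 was the lowest of the 12 on both, at 10.70 and 9.62 log2. The 3 Npr3 probe sets correlated with each other at 0.945 to 0.987.

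**Figure D2:**
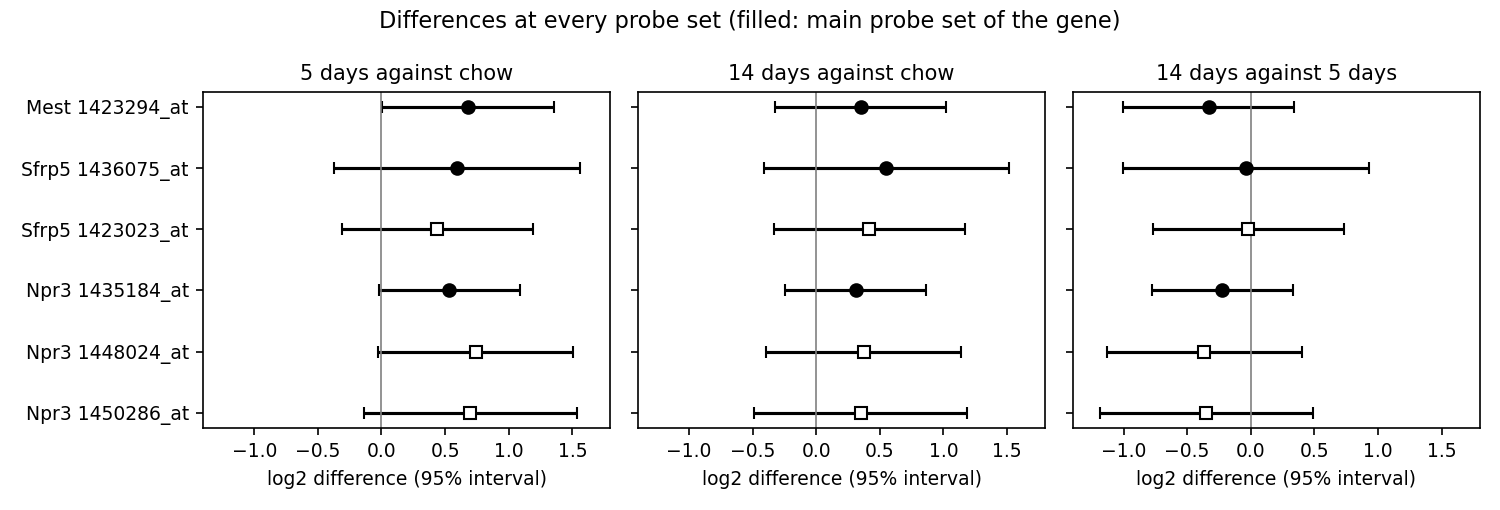
Difference in log2 signal with its 95% interval for each of the 6 probe sets in the 3 comparisons; filled points are main probe sets. The fit runs over every named probe set, where the 5-day interval of Mest is 0.0061 to 1.35 (limma adjusted p = 0.546) and each of the other 17 intervals includes 0.

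Between 14 and 5 days of HFD the differences were -0.33 ± 0.31 for Mest, -0.04 ± 0.45 for Sfrp5 and -0.22 ± 0.26 for Npr3, each with a limma adjusted p of 0.999. The 95% intervals were -1.01 to 0.35, -1.02 to 0.94 and -0.78 to 0.34, so differences of up to about 1 log2 lie inside the first and second. These signs were not stable: without 14-day array 4 Sfrp5 was at 0.39 and Npr3 at 0.033, and with array weights the 3 differences were 0.29, 0.92 and 0.17. Without both HFD arrays numbered 4 they were 0.045, 0.57 and 0.11. The comparisons against chow share the 4 chow arrays.

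Read against all 13312 genes, the members' results were as follows. At 5 days against chow, limma called 0 genes (0%), with 1345 genes (10.1%) at an unadjusted p under 0.05 and 0 of the 3 members among them, and 864 genes (6.49%) had all 5-day arrays above all chow arrays, again with 0 of the 3 members. At 14 days against chow, 0 genes (0%) were called by limma, 1061 (7.97%) had an unadjusted p under 0.05, 315 (2.37%) were higher without overlap, and the members numbered 0 in each. At 14 against 5 days, 0 genes (0%) were called by limma, 340 (2.55%) had an unadjusted p under 0.05, 86 (0.646%) were higher without overlap, and the members again numbered 0. By p the members ranked 1369 (Mest), 4054 (Sfrp5) and 1557 (Npr3) of 13312 at 5 days against chow.

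All 3 members varied more between arrays of the same group than most genes did. The SD within groups was 0.49 log2 for Mest, 0.70 for Sfrp5 and 0.40 for Npr3, against a median of 0.14 over the genes tested. These values stood at the 94.9, 97.0 and 92.8 percentile of all genes.

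The variation was shared. Over the 12 arrays Mest and Sfrp5 correlated at r = 0.850 (95% interval 0.539 to 0.957; Spearman's rho 0.902), with a two-sided permutation p of 0.00028 for r and 0.0001 for rho, adjusted over the 3 pairs to 0.00028 and 0.00014. Mest and Npr3 correlated at r = 0.890 (rho 0.944), with permutation p of 0.00014 and 3e-05, adjusted to 0.00024 and 9e-05. Sfrp5 and Npr3 correlated at r = 0.870 (rho 0.909), with permutation p of 0.00016 and 0.00014, adjusted to 0.00024 and 0.00014. Other genes followed each member more closely. Among 13311 other genes ranked by r, Npr3 was 12 and Sfrp5 51 with Mest. With Sfrp5, Npr3 was 99 and Mest 175, and with Npr3, Mest was 65 and Sfrp5 109. The pairs were chosen with earlier results of these arrays known.

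**Figure D3:**
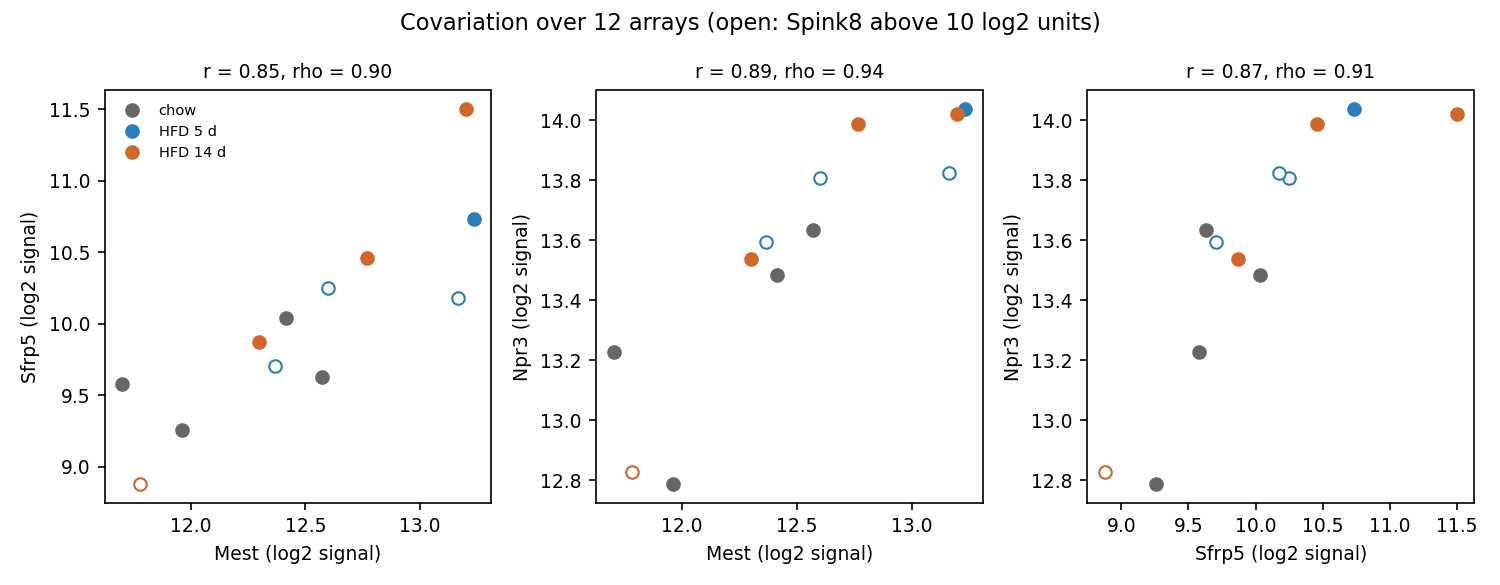
Log2 signals of each pair of members against each other, 1 point per array, coloured by group. Points rise together in all 3 panels (r = 0.850, 0.890 and 0.870), with 14-day array 4 near the low end and 14-day array 1 near the high end.

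With each group's mean subtracted, r was 0.85 for Mest with Sfrp5, 0.85 for Mest with Npr3 and 0.86 for Sfrp5 with Npr3, values given without a test. Single groups hold 4 arrays, too few for a correlation of their own, so how much each group contributed was not tested. Leaving out the 2 arrays farthest from the median of the first gene of each pair gave 0.868, 0.897 and 0.892. In the 8 arrays with Spink8 under 10 log2, r was 0.870, 0.890 and 0.848, with exact permutation p adjusted over the 3 pairs of 0.00632, 0.00632 and 0.00861.

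Transcripts of other tissues varied along with the members in some arrays. Array 4 of the 14-day group, the lowest of its group for all 3 members, had Spink8 at 14.96 log2 (6.85 to 8.87 in the other 14-day arrays), an epididymis marker mean of 12.82 (7.20 to 7.79), and the highest smooth muscle marker mean of the study, 13.65, with the lowest adipocyte marker mean, 13.66. Array 4 of the 5-day group, the highest of its group for all 3 members, was its only array with Spink8 at a low level, 7.20 log2 against 14.28 to 14.45. It also carried the 3′ to 5′ difference of 2.83 for pyruvate carboxylase. With group means subtracted, Spink8 correlated at -0.70 with Mest, -0.79 with Sfrp5 and -0.77 with Npr3; over the raw 12 arrays the values were -0.12, -0.36 and -0.19. The liver marker mean was highest in 5-day array 4 (13.20 log2) and 14-day array 1 (12.75), where each member was the highest of its group. Other arrays went the other way. The liver mean was 11.95 in chow array 3, where Sfrp5 and Npr3 were the lowest of the chow arrays. It was 11.43 in 5-day array 2, where each member was the lowest of its group. Alb, the liver's serum albumin, correlated with Mest, Sfrp5 and Npr3 at 0.43, 0.51 and 0.29 over the 12 arrays. The part of these tissues and of RNA quality in the members' levels was not tested beyond the fits given next.

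**Figure D4:**
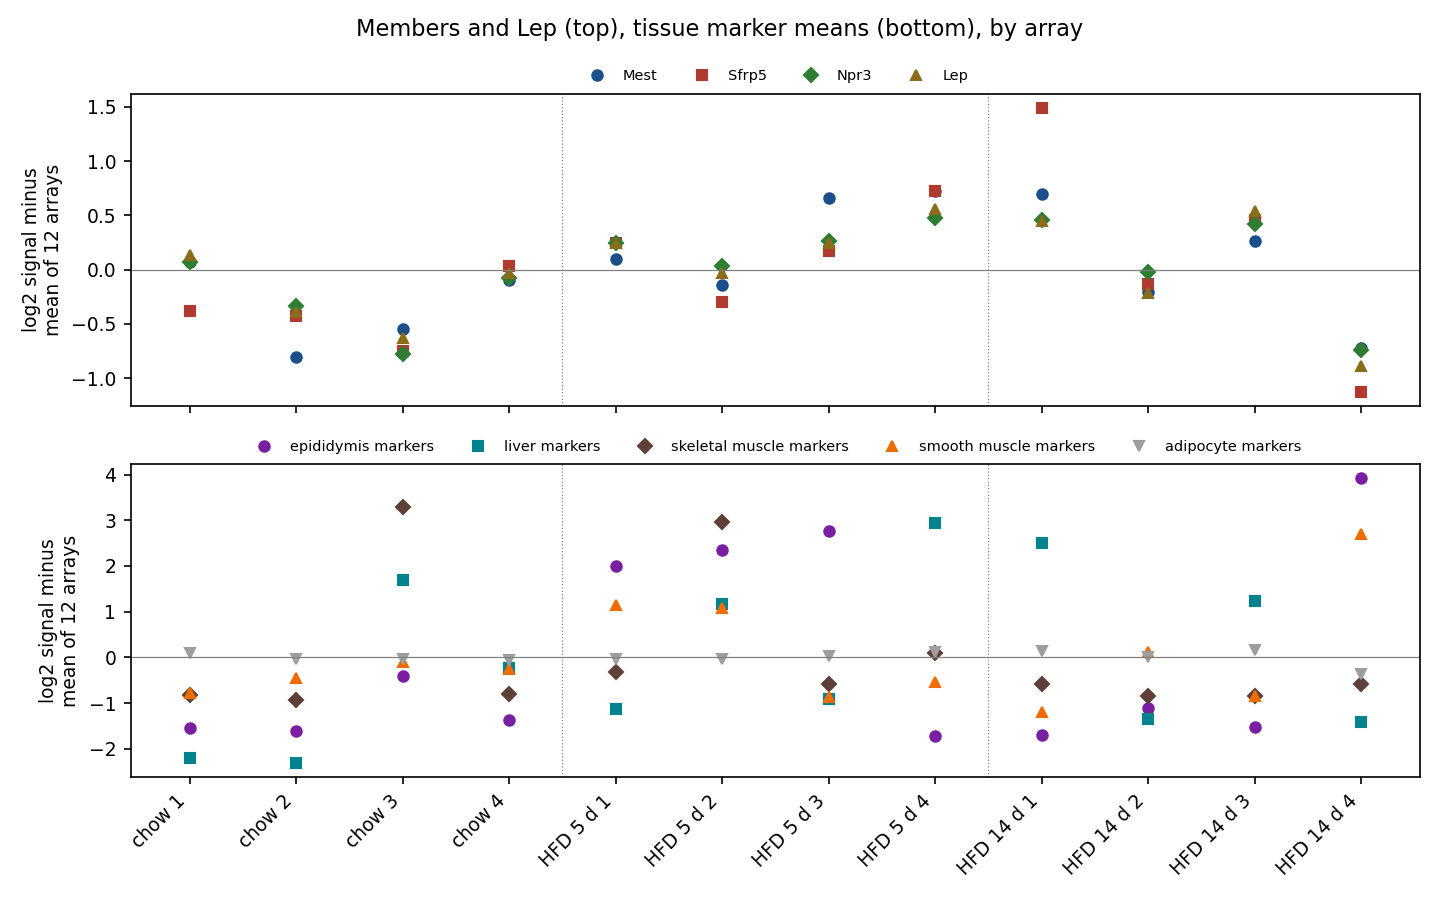
Log2 signal minus its mean over 12 arrays, for Mest, Sfrp5, Npr3 and Lep (top) and for the mean of each marker list (bottom), array by array. In 14-day array 4, where the epididymis mean is 12.82 log2 before centring, all 4 genes of the top panel are the lowest of their group.

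Without 14-day array 4, the 14-day difference from chow was 0.59 ± 0.28 for Mest, 0.99 ± 0.35 for Sfrp5 and 0.57 ± 0.19 for Npr3, with limma adjusted p of 0.514, 0.482 and 0.482. Without 14-day array 1 it was 0.12, 0.11 and 0.17. Leaving out either array moved every one of these differences by more than 1.5 times, and neither version passed the test. With the mean of the epididymis markers in the model, the 5-day difference was 1.10 ± 0.28 for Mest (limma adjusted p = 0.0578), 1.31 ± 0.33 for Sfrp5 (0.0559) and 0.95 for Npr3 (0.0277), so Npr3 alone of the 3 was called in that fit. In that group 3 of 4 arrays had Spink8 above 14 log2. With liver and skeletal muscle marker means added to that model, 0 genes were called, and the differences at 5 days were 0.62 for Mest, 0.71 for Sfrp5 and 0.85 for Npr3 (limma adjusted p = 0.659, 0.659 and 0.462). At 14 days the same model gave 0.0088, 0.23 and 0.31, so the call of Npr3 was lost and the 14-day difference of Mest was close to 0. With each array weighted by how closely it followed its group, the 14-day differences were 0.89 for Mest, 1.45 for Sfrp5 and 0.71 for Npr3 (limma adjusted p = 0.0211, 0.0112 and 0.0147), and Npr3 was also called at 5 days (0.55, limma adjusted p = 0.0407), in a fit that called 2981 genes at 14 days and 2015 at 5 days.

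Lep, which encodes the satiety hormone leptin made by adipocytes, followed the members closely. It read 12.58, 12.06, 11.81 and 12.41 log2 on chow, 12.69, 12.41, 12.70 and 13.01 after 5 days, and 12.90, 12.24, 12.99 and 11.56 after 14 days, with 14-day array 4 again the lowest of all. Its differences from chow were 0.49 ± 0.29 after 5 days and 0.20 ± 0.29 after 14 days (limma adjusted p = 0.597 and 0.883). Among 13311 other genes, Lep ranked 1 by its correlation with Npr3 (r = 0.98), 9 with Mest (0.90) and 108 with Sfrp5 (0.87). Other adipocyte genes varied in how far they followed Mest, Sfrp5 and Npr3. Adipoq correlated with them at 0.28, 0.42 and 0.31 over the 12 arrays and at 0.71, 0.73 and 0.73 with group means subtracted. The adipocyte regulator Pparg stood at 0.22, 0.31 and 0.27, and at 0.68, 0.68 and 0.75 with group means subtracted. In the 8 arrays with Spink8 under 10 log2, Adipoq stood at 0.0024, 0.12 and -0.031 and Pparg at -0.44, -0.62 and -0.39. The insulin-responsive glucose transporter Slc2a4 correlated at 0.69, 0.58 and 0.59 in those 8 arrays. Over the 12 arrays Slc2a4 stood at 0.69, 0.70 and 0.71 and the lipase Lpl at 0.70, 0.74 and 0.84. Dgat2, which makes triglycerides, stood at 0.84, 0.78 and 0.82, and the secreted protein Retn at 0.65, 0.70 and 0.77. Both were named after their values were seen. Fabp4, with Lpl the adipocyte marker of highest signal, ran only from 15.165 to 15.247 log2. Its lowest value in the 5-day group was in array 4, where the members were highest. In the 14-day group it was also lowest in array 4, where the members were lowest.

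Across all genes, 9 correlated with Mest at 0.9 or more, 35 with Sfrp5 and 47 with Npr3, while the median gene stood at 0.10, 0.13 and 0.11. Most like Mest over the 12 arrays were Cacna1a, a calcium channel subunit (r = 0.95), Prelp, a matrix protein (0.94), Fads3 of the fatty acid desaturase family (0.93) and D430019H16Rik (0.92). Most like Sfrp5 were the tropomyosin Tpm4 (0.96), Rab29 (0.94), Mfge8, a secreted milk fat globule protein (0.94), and the annexin Anxa6 (0.94). Most like Npr3 after Lep were Anxa6 (0.97), D430019H16Rik (0.96) and the synuclein Sncg (0.96). All of these correlations come from the same 12 arrays.

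**Figure D5:**
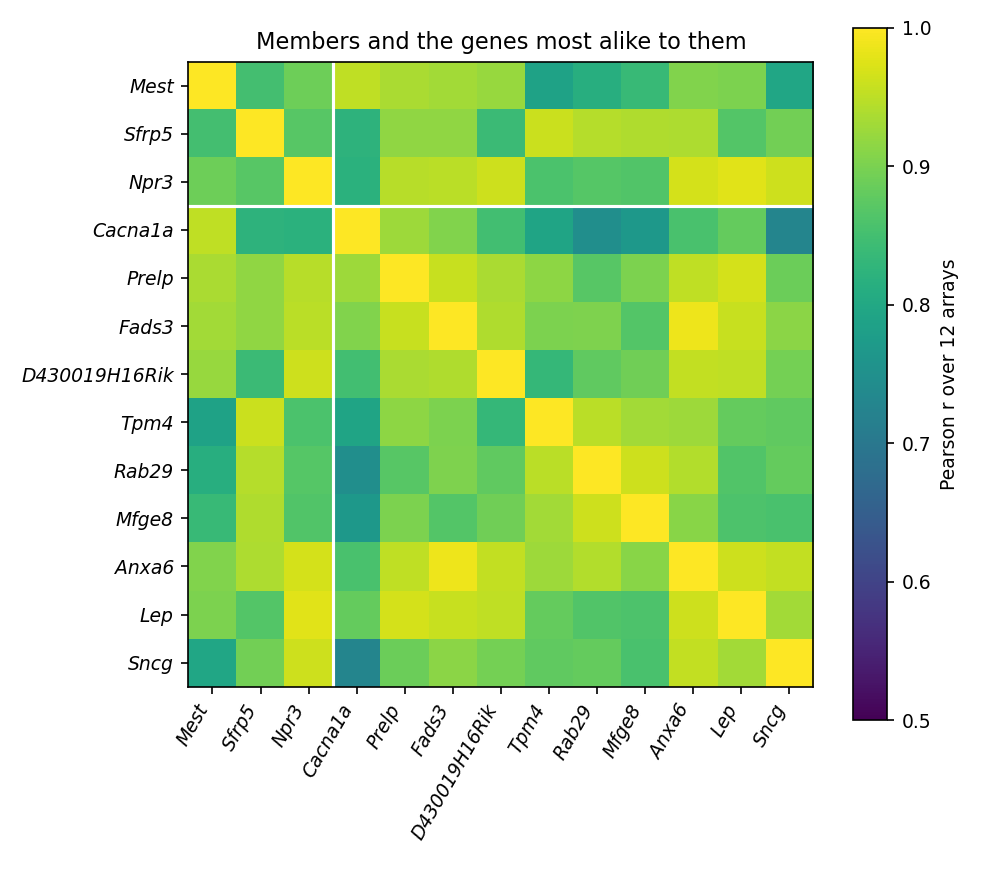
Pearson r over 12 arrays between the 3 members and the 10 genes most like them, on a colour scale from 0.5 to 1. The lowest r in the map is 0.727, between Cacna1a and Sncg.

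Genes around the members in their pathways were read from lists, with 0 genes called by limma in any of them. Of 5 tested secreted Wnt inhibitors other than Sfrp5, 1 was above and 4 were below chow after 5 days, and 0 were above and 5 below after 14 days, with median differences of -0.57 and -0.46 against -0.0015 and 0.0155 over all genes. Sfrp1, a relative of Sfrp5, averaged 9.45 ± 0.22 log2 after 5 days, against 10.02 ± 0.41 on chow, and differed by -0.57 ± 0.23 after 5 and -0.80 ± 0.23 after 14 days (limma adjusted p = 0.453 and 0.503). Sfrp2 differed by -0.65 ± 0.20 and -0.56 ± 0.20 and Dkk3 by -0.39 ± 0.08 and -0.23 ± 0.08. Sfrp5 itself was above chow in the mean at both times. Sfrp1, Sfrp2 and Dkk3 were named because their p was the smallest of the list at 14 days. Over all 13312 genes, 755 were lower than chow at a limma unadjusted p under 0.05 after 5 days, and 573 after 14 days. In this list 4 of 5 had an unadjusted p under 0.05 at each time, all lower than chow. Mesothelium markers were below chow alongside it: of 10 tested, 9 and 8 were lower after 5 and 14 days, with medians of -0.65 and -0.60, and the part of mesothelial cells was not tested.

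Among Wnt ligands 5 of 9 were above chow at both times, with 0 at an unadjusted p under 0.05. Among 16 Wnt receptors and co-receptors 6 were above and 10 below chow at both times, with 2 higher and 1 lower at an unadjusted p under 0.05 each time. Lgr4, a receptor for R-spondins, differed by 0.41 ± 0.13 after 5 and 0.37 ± 0.13 after 14 days (limma adjusted p = 0.354 and 0.571), and Fzd8, a Wnt receptor, by 0.11 ± 0.06 and 0.18 ± 0.06. Ror1, a Wnt co-receptor, differed by -0.22 ± 0.11 and -0.31 ± 0.11 (0.533 and 0.580). Fzd7, another Wnt receptor, named after its values were seen, differed by -0.31 ± 0.08 after 5 days and by -0.08 ± 0.08 after 14 days (0.331 and 0.840). Of 14 intracellular members and targets, 5 were above chow after 5 days and 7 after 14 days. Nkd1, a feedback inhibitor inside the cell, differed by -0.02 ± 0.16 and 0.33 ± 0.16, and Axin2, a target gene, by -0.24 ± 0.12 and -0.19 ± 0.12. In 14-day array 4, which had Spink8 at 14.96 log2, Nkd1 was at 9.11, against 8.34 to 8.50 in the other 14-day arrays. The part of epididymal tissue in that value was not tested. Tcf7l2, also of this list, read 9.10 to 9.66 log2 after 5 days and 9.49 to 9.85 on chow.

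In the BMP family, to which Bmp3 belongs, most measured genes were below chow in the mean. Of 7 ligands, 6 were below chow after 5 days and 5 after 14 days; Gdf10, the ligand most similar to Bmp3 in sequence, differed by -0.43 ± 0.18 and -0.62 ± 0.18 (limma adjusted p = 0.453 and 0.489). Among 6 BMP inhibitors 5 were below chow at both times, with Bambi, a decoy receptor, at -0.23 ± 0.10 and -0.36 ± 0.10. Of 9 Smads and Id target genes 7 were below at both times, and Id1, induced by BMP signals, differed by -0.55 ± 0.19 and -0.45 ± 0.19. None of these genes was called. Markers of preadipocytes and fibroblasts were below chow alongside them, 7 of 9 after 5 days and 9 of 9 after 14 days (medians -0.15 and -0.36, with 1 and 4 at an unadjusted p under 0.05), with list means of 11.28 to 11.81 log2 in the 14-day arrays, 11.72 to 12.04 in the 5-day arrays and 11.94 to 12.08 on chow. The mesothelium markers given above were lower too, and the part of either cell type in the BMP genes was not tested.

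Of 7 tested genes of the natriuretic peptide pathway other than Npr3, 2 were above chow after 5 days and 3 after 14 days. Mme, the peptidase neprilysin that degrades natriuretic peptides, averaged 11.64 ± 0.21 log2 after 5 days and 10.87 ± 0.07 on chow, a difference of 0.78 ± 0.22, and differed by 0.56 ± 0.22 after 14 days (limma adjusted p = 0.347 and 0.580). Npr1, the signalling receptor, differed by -0.28 ± 0.14 and -0.29 ± 0.14 (0.543 and 0.659). Mme was highest in the 4 arrays with Spink8 above 14 log2, at 11.80, 11.68 and 11.74 in 5-day arrays 1 to 3 and 12.16 in 14-day array 4, against 10.82 to 11.39 in the other arrays. It correlated with Npr3 at 0.11, and the part of epididymal tissue in its level was not tested.

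Among 17 other imprinted genes, 8 were above and 9 below chow after 5 days, and 9 above and 8 below after 14 days, with medians of -0.04 and 0.03. Igf2, the paternally expressed growth factor, differed by -0.16 ± 0.11 and -0.19 ± 0.11, and Gnas, which encodes a G protein subunit, by 0.07 ± 0.04 at both times. Mest itself is not counted in this list. Of 7 genes of caveolae, the membrane pits abundant in adipocytes, 6 were above chow at both times, with medians of 0.07 and 0.03; Cavin3, a caveolar coat protein, correlated with Npr3 at 0.92 and differed by 0.44 ± 0.26 and 0.22 ± 0.26.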

How the data were processed

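Adipose RNA of 12 samples was measured, 1 array each. The authors deposited a table of log2 values, judged to be log2 from their range (4.18 to 15.50) and the near-equal array medians; summarisation and normalization are not given in the sources used here, and nothing was renormalized. Arrays give no counts, so their number limits the precision. Among 45098 probe sets were 61 controls; 34945 others had 1 gene symbol in the annotation, while 932 with several and 9160 with none were not used. Entrez IDs of 34741 matched RefSeq genes. Each gene was represented by its probe set of highest mean, with a minimum mean of 7.64 log2 (percentile 40 over probe sets). A single limma model (version 3.58.1, R 4.3.3, eBayes with trend) held all 3 groups, two-sided, with Benjamini-Hochberg adjustment over 13312 genes and a threshold of 0.05. These p-values measure only the spread between these samples, which may be technical. Correlations used 100000 resamples, or exact permutation for 8 arrays (SciPy 1.17.1); the smallest p that the resamples can give is 1e-05. The fit was also run on simulated data with planted changes, and the share recovered at the size of the members' differences is not given here.

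The members and lists were chosen with earlier results of these data known. Named genes were the members, the 4 genes most like each member, up to 3 genes of smallest p at 14 days from each pathway list, the 2 markers of highest signal per list, and Lep, Adipoq, Pparg, Slc2a4, Nkd1, Spink8, Adam7 and Alb. Alternatives covered normalization, filter, probe set choice, variance model, array weights, covariates of marker means, the replicate number as a block and leaving out arrays. Bmp3 had no named probe set and is not analysed here.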

Additional observations from a re-analysis of the deposited data

How the results depend on the processing

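The correlations kept their direction under every alternative run and their side of the threshold under each that had a test, which the values with group means subtracted did not have; they were 0.811 to 0.894 (Mest with Sfrp5), 0.865 to 0.907 (Mest with Npr3) and 0.821 to 0.925 (Sfrp5 with Npr3) when 1 array was left out. The group comparisons depended more on the processing, and the cause was not tested. Against 0 genes called in the 3 comparisons in order (5 days against chow, 14 days against chow, 14 against 5 days), array weights called 2015, 2981 and 2212; with them Npr3 passed at 5 days (0.55), Mest, Sfrp5 and Npr3 passed at 14 days (0.89, 1.45 and 0.71), and the 14 against 5 day differences turned to 0.29, 0.92 and 0.17. Only the 2 groups compared gave 213 at 5 days. The epididymis covariate gave 502 at 5 days and 35 at 14 against 5, with Npr3 called at 5 days (0.95); with liver and skeletal muscle means added, 0 genes were called in each comparison. Without both HFD arrays numbered 4 the counts were 881, 1 and 723, and the 14 against 5 day differences turned to 0.045, 0.57 and 0.11. The adipocyte marker covariate, chosen after seeing the data, gave 32 and 2 against chow and turned Sfrp5 at 14 against 5 days to 0.036.

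Leaving out 1 array gave counts of 0 to 123 at 5 days (123 without 14-day array 4, 1 without 14-day array 2), 0 to 20 at 14 days (20 without 14-day array 2, 2 without 14-day array 4) and 0 to 0 between them. The differences ran from 0.53 to 0.84 (Mest), 0.42 to 0.76 (Sfrp5) and 0.37 to 0.65 (Npr3) at 5 days, from 0.12 to 0.59, 0.11 to 0.99 and 0.15 to 0.57 at 14 days, and from -0.56 to -0.086, -0.48 to 0.39 and -0.37 to 0.033 at 14 against 5 days; Sfrp5 turned without 5-day array 4 (0.13), 14-day array 2 (0.063) or 14-day array 4 (0.39), and Npr3 without 14-day array 4 (0.033). With the replicate number as a replicate block, 0 genes were called, and the 5-day difference of Mest stayed at 0.68 (limma adjusted p = 0.590). Same-numbered arrays deviated together at -0.61 to 0.35, over 0.1 in 4 of 12 pairs, and 1 of 12 arrays correlated best with its own number. The value of -0.61 was between 5-day and 14-day arrays 4, which differ in epididymal transcripts. The part of tissue differences in these deviations was not tested, and the check cannot tell whether the numbers pair the samples. Results for Bmp3, and its 3 pairs, were not run. Depth does not apply to arrays, and no detection calls were used.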
